A study of Homo sapiens with 12 samples.

Results

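WI-38, a fibroblast line from human embryonic lung, was depleted of the Hippo pathway coactivators YAP and TAZ by small interfering RNAs (siRNAs) and, at the same time, of either cGAS or STING. The comparison described here sets the cGAS_YT libraries (replicates 9 and 10; cGAS siRNAs with YAP and TAZ siRNAs) directly against the STING_YT libraries (replicates 15 and 16; STING siRNAs with YAP and TAZ siRNAs). These are 4 of the 12 libraries in the series, chosen by their labels. All 13894 genes tested, of 13937 in the table, entered the comparison. Every group used was transfected with Lipofectamine RNAi-MAX and grown in MEM with 10% serum. The cGAS (7, 8) and STING (13, 14) groups received the same siRNAs with a control siRNA in place of those against YAP and TAZ, and serve as the matched comparison. Levels in the control (1, 2; control siRNA only) and YT (3, 4; YAP and TAZ siRNAs with control siRNA) groups are given as background. A transient knockdown lowers a transcript without removing it, and the siRNA sequences, the time after transfection and the meaning of "4x" in the library titles were not found in the labels.

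cGAS is a cytosolic enzyme that binds double-stranded DNA and makes the cyclic dinucleotide cGAMP. STING is the adaptor in the endoplasmic reticulum that cGAMP activates, and it recruits the kinase TBK1, which activates the transcription factor IRF3 and so type I interferon and interferon-stimulated genes. STING also feeds NF-kB, the regulator of many inflammatory cytokines. cGAS and STING thus stand in line in one pathway, the sensor before the adaptor. YAP and TAZ bind TEAD factors at genes of growth, adhesion and the cytoskeleton, and in fibroblasts they are known for driving contractile and matrix genes.

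The libraries were made with a kit that reads the 3' ends of messenger RNA, so levels are in CPM as deposited and need no correction for length. CPM are the reads of a gene in proportion to the library total, which here carries a scaling factor of 0.969 to 1.03 per library, so the columns do not add up to a common sum. They held between 17790774 and 20650727 reads, and 1 read was worth about 0.05 CPM. The labels do not say whether replicates came from separate cultures, and p-values therefore reflect the spread between these particular libraries, which may be technical. In these bulk samples fewer cells of a type and less RNA per cell cannot be told apart. All 14 fibroblast markers were present, at summed levels of 27069 to 42164 CPM per library, and 3 of 24 markers of other cell types passed the filter on low values (CD68, CD14 and KRT15), at summed levels of 5.11 to 9.87 CPM. Replicates correlated at 0.987 or more across genes. One library stands apart in one respect: all 45 interferon-stimulated genes were higher in cGAS_YT replicate 9 than in replicate 10, by a median of 0.98 on the log2(CPM + 1) scale, and 20 of them by more than 2-fold. Between the STING_YT replicates the same median was -0.23, and no member was more than 2-fold apart. The STING replicates of the matched comparison differed by a median of -0.39, with 41 of 45 members higher in replicate 14 and 4 more than 2-fold apart.

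The targeted transcripts followed their labels. MB21D1, the gene of cGAS (chr6:73413515-73452276, GRCh38), stood at 1.65 and 1.30 CPM in cGAS_YT and at 4.89 and 4.78 CPM in STING_YT, so 30.5% of the STING_YT level was left. TMEM173, the gene of STING (chr5:139475534-139482935), stood at 25.6 and 21.0 CPM in cGAS_YT and at 1.28 and 1.93 CPM in STING_YT, so 6.88% was left. Neither gene overlapped between groups. Both cGAS_YT libraries were below both STING_YT libraries for 35.9% of all genes, and above for 35.9%. The log2 difference, cGAS_YT minus STING_YT, was -1.24 ± 0.22 (SE) for MB21D1 (limma adjusted p = 0.000294) and 3.23 ± 0.16 for TMEM173 (limma adjusted p = 5e-10).

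The YAP and TAZ transcripts were low in both groups, but not equally. YAP1 stood at 24.6 and 21.7 CPM in cGAS_YT and at 12.6 and 16.1 CPM in STING_YT. WWTR1, the gene of TAZ, stood at 17.9 and 18.8 CPM against 12.7 and 11.4 CPM. As a share of the level in the matching group without these siRNAs, cGAS_YT kept 24.8% of its YAP1 and 19.2% of its WWTR1 transcripts, and STING_YT 16.2% and 12%. In YT, WWTR1 had 432 and 325 reads, beside 379 and 362 in cGAS_YT and 229 and 225 in STING_YT. YAP1 had 308 and 253 reads in YT, beside 521 and 418 in cGAS_YT and 227 and 316 in STING_YT. Both differences between cGAS_YT and STING_YT passed the test. The log2 differences were 0.66 ± 0.13 for YAP1 (limma adjusted p = 0.000843) and 0.57 ± 0.12 for WWTR1 (limma adjusted p = 0.00173). What part they have in the results below was not tested.

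With an adjusted p under 0.05 from limma across all genes taken as the call, 2736 genes (19.7%) were higher in cGAS_YT than in STING_YT and 2384 (17.2%) were lower. A called difference of at least 2-fold was found for 577 higher genes (4.15%) and 354 lower genes (2.55%). Both cGAS_YT libraries were above both STING_YT libraries for 35.9% of genes and below for 35.9%. The lists below were read against these shares. Without STING_YT replicate 15 the genes called lower numbered 1565.

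**Figure D1:**
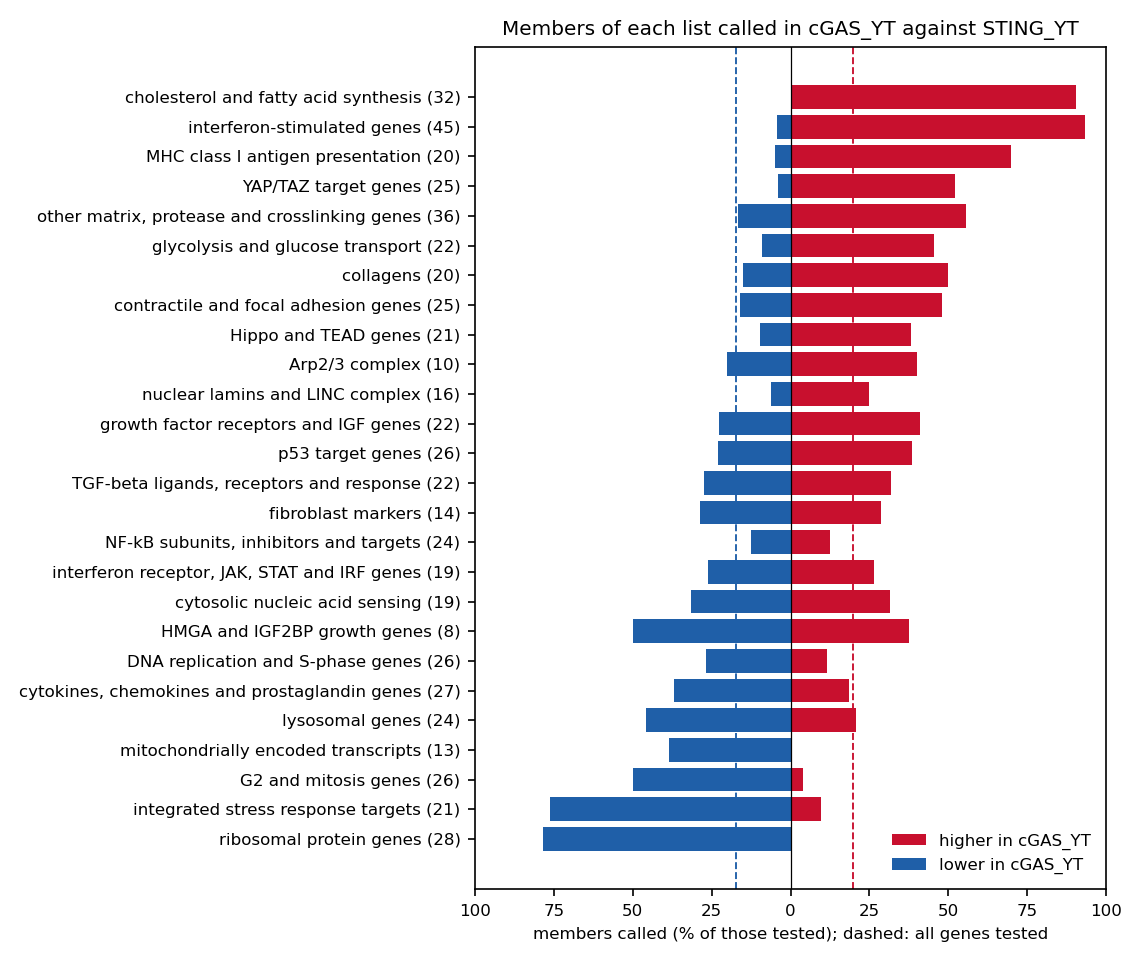
Share of the tested members of each gene list (number in brackets) that were called higher (red, to the right) or lower (blue, to the left) in cGAS_YT than in STING_YT, with the share over all genes tested as dashed lines. Interferon-stimulated and lipid synthesis genes lie almost wholly to the right, with 93.3% and 90.6% of members higher, and ribosomal protein and stress response genes mostly to the left, with 78.6% and 76.2% lower.

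Interferon-stimulated genes were higher in cGAS_YT as a group. Of 45 tested members, 42 were called higher and 2 lower, with a median log2 difference of 1.59 beside -0.005 over all genes, and 36 were called with at least a 2-fold difference. MX1, a GTPase that blocks the entry of viral genomes, stood at 780 and 246 CPM in cGAS_YT and at 31.0 and 51.0 CPM in STING_YT (log2 difference 3.43 ± 0.41, limma adjusted p = 7.26e-06). RSAD2, which encodes the antiviral enzyme viperin, stood at 144 and 19.1 CPM against 0.777 and 2.44 CPM (4.45 ± 0.59, limma adjusted p = 1.88e-05). Both genes come from the 15 largest differences, for which groups without overlap were a condition. Replicate 9 was the higher cGAS_YT library in both. ISG15, a ubiquitin-like modifier, stood at 533 and 240 CPM against 62.7 and 83.0 CPM (2.29 ± 0.25). IFIT1, which binds foreign RNA ends, stood at 282 and 114 CPM against 22.4 and 31.0 CPM (2.72 ± 0.30). IFI6, the inhibitor of apoptosis and viral replication, was the most abundant of those named, at 3653 and 2317 CPM against 711 and 752 CPM (1.99 ± 0.21).

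The oligoadenylate synthetases OAS1 and OAS2, which activate RNase L, differed by 3.17 and 3.43 on the log2 scale. The virus-tethering protein BST2, the chemokine CXCL11 and the nucleotide kinase CMPK2 differed by 3.02, 3.45 and 3.28. IFI44L and the guanylate-binding protein GBP1 differed by 2.77 and 1.30. IFI44L and GBP1 had both cGAS_YT libraries above both STING_YT libraries, as had 35.9% of all genes. The other 5 genes come from the 15 largest differences, for which this was a condition. RSAD2 (chr2:6865806-6898239) and CMPK2 (chr2:6840570-6866635) overlap in the annotation, and the strand setting of the counting is not stated, so reads in the shared stretch cannot be told apart.

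A few members departed from the group. IFITM3 and IFITM2, membrane proteins that block the entry of viruses, were called lower, at 1181 and 843 CPM against 1594 and 1618 CPM for IFITM3 and 229 and 146 CPM against 303 and 276 CPM for IFITM2. Read assignment between these near-identical genes is uncertain, and the call for IFITM2 was lost without cGAS_YT replicate 10 (adjusted p = 0.0652, limma). IFIT5 was the only member not called, at 61.4 and 41.7 CPM against 38.5 and 45.9 CPM, and its groups overlapped.

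The size of the difference depended on which cGAS_YT library was kept. Without replicate 9, 34 members were called higher with a median of 1.09, beside 14.3% of all genes. Without replicate 10, 43 were, with a median of 2.25, beside 15.8% of all genes. RSAD2 moved most among the genes named, to 3.02 without replicate 9 and 5.87 without replicate 10. The log2 differences of CMPK2 (2.23 and 4.33), CXCL11 (2.31 and 4.6), MX1 (2.60 and 4.26), OAS1 (2.42 and 3.92), OAS2 (2.73 and 4.14) and IFIT1 (2.08 and 3.37) moved as well. These are examples, since replicate 9 was the higher library for all 45 members.

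The summed level of the 45 genes was 13486 and 7565 CPM in cGAS_YT and 4291 and 4583 CPM in STING_YT, and it was 3515 and 4175 CPM in YT and 2688 and 2758 CPM in control. In cGAS it was 11019 and 10412 CPM and in STING 3167 and 4007 CPM. By sum the STING_YT libraries lay just above the YT libraries. Their medians on the log2(CPM + 1) scale overlapped, at 4.70 and 5 in STING_YT and 4.77 and 4.45 in YT. Abundant members weigh on the sum, such as IFI6 with 12815 and 14792 reads in STING_YT and 2787 and 4050 in YT. Both groups with cGAS siRNAs lay above every other library by sum and by median. MX1 had a mean of 11.4 CPM in control and 38.1 CPM in YT.

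**Figure D2:**
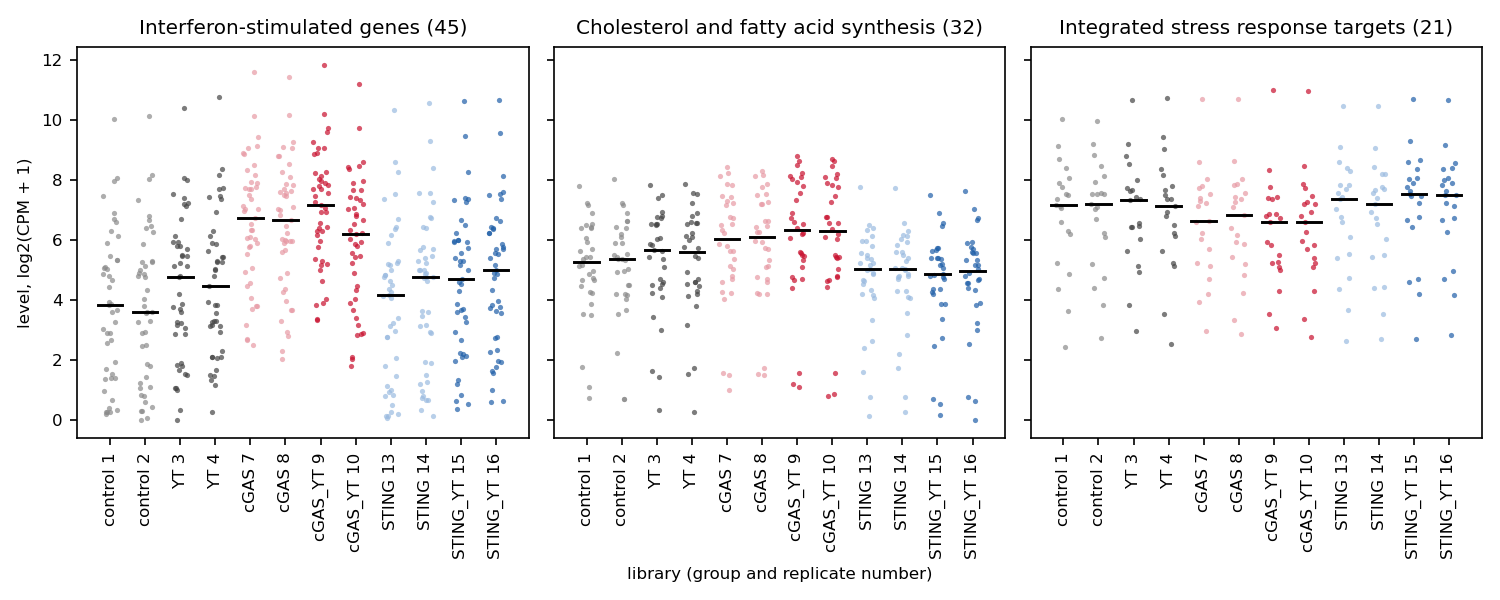
Level of every tested member (points) and the median (black line) in each of the 12 libraries, on the log2(CPM + 1) scale, for interferon-stimulated genes, lipid synthesis genes and integrated stress response targets. The interferon-stimulated medians of the cGAS_YT libraries, 7.18 and 6.19, are apart from each other and above the 4.70 and 5 of STING_YT, whereas the replicates of the other panels lie close together.

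The interferon response element is bound by the ISGF3 complex and by IRF factors. Its core, 2 blocks of GAAA with any 2 bases between them, was searched on both strands of the window from 250 bases before to 50 bases after each annotated start (RefSeq, GRCh38.p14), where 10278 tested genes had an entry. At least 1 match was found for 29 of 38 interferon-stimulated genes (76.3%), 4.06% of all genes, 10.9% of the genes called higher by at least 2-fold and 3.75% of those called lower by at least 2-fold. The stretches below are shown because they belong to genes with some of the largest differences. Capitals mark the match or its reverse complement, and each is read 5′ to 3′ on the gene's strand.
IFIT1 (chr10:89392497-89392526, plus strand): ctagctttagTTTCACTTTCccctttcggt
IFI6 (chr1:27672288-27672317, minus strand): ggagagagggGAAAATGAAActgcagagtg
ISG15 (chr1:1013380-1013409, plus strand): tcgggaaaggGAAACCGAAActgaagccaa
BST2 (chr19:17405741-17405770, minus strand): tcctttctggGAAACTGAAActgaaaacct
MX1 (chr21:41420559-41420588, plus strand): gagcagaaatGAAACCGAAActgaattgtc
RSAD2 (chr2:6877622-6877651, plus strand): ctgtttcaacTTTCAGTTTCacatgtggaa
IFITM3 (chr11:320876-320905, minus strand): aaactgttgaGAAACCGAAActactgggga

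The match lies 11 bases after the start in MX1, 145 bases before the start in RSAD2, 124 to 130 bases before it in BST2 (a pair that overlaps) and 35 bases before it in IFITM3, which is printed as a member that was lower although it holds 2 matches. No match was found in the 25 promoters of lipid synthesis genes, and 1 was found in the 18 of stress response targets. A match describes the letters and is neither a tested site nor a cause.

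Among 19 genes of cytosolic nucleic acid sensing, 6 were higher and 6 lower. The higher ones included some of the genes that interferon is known to induce. Among these were the RNA sensors DDX58 (RIG-I, 145 and 67.4 CPM against 22.7 and 30.4 CPM) and IFIH1 (MDA5, log2 difference 1.82). The nucleotide hydrolase SAMHD1 (1.96) was another. ENPP1, the enzyme that degrades cGAMP outside cells, stood at 15.1 and 15.4 CPM against 5.55 and 5.79 CPM (1.28 ± 0.17, limma adjusted p = 2.26e-05). ENPP1 showed no such difference without YAP and TAZ siRNAs, at 20.4 and 20.9 CPM in cGAS and 20.6 and 20.3 CPM in STING, and the test of the difference between both contrasts passed (1.27 ± 0.24, limma adjusted p = 0.00578). The RNA editor ADAR (-0.54), the kinase IKBKE (-0.65) and the mitochondrial regulator NLRX1 (-0.93) were lower.

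Of 19 interferon receptor, JAK, STAT and IRF genes, 5 were higher and 5 lower, and 3 were lower without cGAS_YT replicate 10 or STING_YT replicate 16. IRF7, which amplifies interferon production, and USP18, which restrains the interferon receptor, differed by 1.24 and 1.74. STAT3, the transducer of interleukin-6 family signals (chr17:42313324-42388568), was lower, with close replicates: 40.0 and 40.4 CPM against 180 and 183 CPM (-2.15 ± 0.09, limma adjusted p = 6.08e-11). Its level was 167 CPM in control and 232 CPM in YT on average, and 38.2 and 34.9 CPM in cGAS, so every library with cGAS siRNAs was low. SOCS3, a feedback inhibitor that STAT3 induces, was lower as well (-0.88). IRF1 was lower by a small difference (-0.26) whose call was lost without cGAS_YT replicate 9 or 10 or STING_YT replicate 16.

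Antigen presentation by MHC class I was mostly higher, with 14 of 20 members called higher and 1 lower. B2M, the light chain of the complex, stood at 6439 and 4878 CPM against 2338 and 2585 CPM (1.19 ± 0.13). The peptide transporter TAP1 stood at 280 and 168 CPM against 84.6 and 91.8 CPM (1.29 ± 0.16). The chaperones CALR (1941 and 1990 CPM against 975 and 996 CPM) and PDIA3 (656 and 663 CPM against 317 and 353 CPM), which load the complex in the endoplasmic reticulum, were higher without a gap between replicates 9 and 10. HLA-F differed by 1.68, but its call was lost without cGAS_YT replicate 9 or STING_YT replicate 15. ERAP1, the peptidase that trims peptides, was the member called lower (-0.82).

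Cholesterol and fatty acid synthesis gave the other large group of higher genes. Of 32 members, 29 were called higher and none lower, the same call by edgeR's quasi-likelihood test (29 and 0) and by DESeq2 (29 and 0), with a median log2 difference of 1.49. HMGCS1, which makes HMG-CoA, stood at 357 and 354 CPM in cGAS_YT and at 52.7 and 51.3 CPM in STING_YT (2.75 ± 0.09, limma adjusted p = 7.84e-12). Here the replicates of each group were close to each other and the groups far apart.

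IDI1, which isomerises the isoprenoid unit, and MSMO1, a sterol demethylase, differed by 2.54 and 2.20. The fatty acid desaturases FADS2, FADS1 and SCD differed by 2.63, 1.65 and 1.65. SREBF2, the transcription factor of the cholesterol genes, stood at 83.8 and 82.2 CPM against 40.8 and 47.5 CPM (0.90 ± 0.10). Among the 3 members not called were SREBF1 (20.0 and 20.5 CPM against 18.1 and 22.5 CPM) and the kinase PMVK (26.3 and 23.6 CPM against 19.5 and 22.5 CPM).

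The summed level of the lipid genes was 4179 and 4009 CPM in cGAS_YT and 1206 and 1314 CPM in STING_YT, beside 2000 and 2041 CPM in YT and 1717 and 1767 CPM in control. The cGAS_YT libraries thus lay above, and the STING_YT libraries below, both of these groups. The core of the sterol response element, searched as TCACNCCAC on both strands of the same windows, was found in 1 of 25 promoters of the list (SREBF2) and in 1.45% of all.

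Targets of the integrated stress response were lower. This response slows translation through phosphorylated eIF2 and raises the transcription factor ATF4 and its targets in amino acid supply. Of 21 members, 16 were lower and 2 higher, with a median log2 difference of -0.91. TRIB3, a pseudokinase that dampens ATF4, stood at 30.9 and 36.9 CPM in cGAS_YT and at 175 and 179 CPM in STING_YT (-2.36 ± 0.10, limma adjusted p = 7.59e-11). SLC7A5, the large neutral amino acid transporter, stood at 33.0 and 41.2 CPM against 149 and 139 CPM (-1.94 ± 0.10). PSAT1, of serine synthesis, stood at 106 and 145 CPM against 407 and 373 CPM (-1.65 ± 0.12). TRIB3 and SLC7A5 come from the 15 largest lower differences, for which groups without overlap were a condition. PSAT1 had both cGAS_YT libraries below both STING_YT libraries, as had 35.9% of all genes.

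The transporter subunit SLC3A2 (-1.10), the glutathione-degrading enzyme CHAC1 (-1.01), the mTORC1 inhibitor DDIT4 (-1.08), the factor DDIT3 (CHOP, -0.71) and ATF4 itself (-0.82) were lower. STC2 (0.31) and ATF3 (0.36) were the members called higher. The call for STC2 was lost without STING_YT replicate 16, and that for ATF3 with any of 3 libraries left out (both cGAS_YT libraries and STING_YT replicate 15) and by DESeq2 (adjusted p = 0.052). The heme-degrading enzyme HMOX1, not on the list but among the 15 largest lower differences, stood at 24.2 and 31.3 CPM against 109 and 105 CPM. The summed level of the 21 genes was 3965 and 4104 CPM in cGAS_YT and 5621 and 5394 CPM in STING_YT beside 4906 and 5201 CPM in YT and 4350 and 4402 CPM in control. The cGAS_YT libraries lay below both of these groups and the STING_YT libraries above them. The abundant STC2, called higher, weighs on these sums, with 43381 and 38011 reads in cGAS_YT and 29623 and 31525 in STING_YT. The list medians on the log2(CPM + 1) scale also had cGAS_YT below and STING_YT above YT and control. Unlike the sums, the medians of YT and control overlapped. They were 6.60 and 6.61 in cGAS_YT, 7.52 and 7.50 in STING_YT, 7.32 and 7.12 in YT and 7.17 and 7.19 in control.

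TRIB3, SLC7A5, PSAT1, SLC3A2, DDIT3 and DDIT4 are among the 9 members whose difference was more negative with YAP and TAZ siRNAs than without them, beside 1.64% of all genes. TRIB3 stood at 34.3 and 36.1 CPM in cGAS and 67.7 and 63.7 CPM in STING, so for this gene STING_YT was above STING and cGAS_YT was near cGAS (difference of differences -1.48 ± 0.14, limma adjusted p = 3.78e-05). SLC7A5 stood at 98.1 and 112 CPM in cGAS and 227 and 205 CPM in STING, so both groups with YAP and TAZ siRNAs were below their counterparts, cGAS_YT by the larger ratio (-0.90). The call of DDIT3 in that test was lost with any of 4 libraries left out. DDIT4 was not called without the YAP and TAZ siRNAs (0.25), and its difference of differences was -1.33 ± 0.16 (limma adjusted p = 0.000186). The letters TGATGNAA, a core of the ATF4 response element, were found on either strand in 4 of 18 promoters of the list (ATF3, CHAC1, ASNS and SLC3A2) and in 2.77% of all.
ASNS (chr7:97872458-97872487, minus strand): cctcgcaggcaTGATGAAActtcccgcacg
CHAC1 (chr15:40953251-40953280, plus strand): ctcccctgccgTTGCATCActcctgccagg

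Ribosomal protein genes were lower by small differences. Of 28 members, 22 were lower and none higher, with a median of -0.36, and edgeR (23 and 0) and DESeq2 (24 and 0) gave like counts. RPL13 led them, at 455 and 555 CPM against 933 and 845 CPM (-0.82 ± 0.10). The number lower was 10 without cGAS_YT replicate 9 and 14 without STING_YT replicate 15.

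Of 25 targets of YAP and TAZ, 13 were higher in cGAS_YT, 1 was lower and 11 were not called, with a median of 0.27. The number higher was 9 to 11 with 1 library left out. Both groups had received the siRNAs against YAP and TAZ. ANKRD1, a muscle ankyrin repeat protein and classic YAP target, stood at 19.8 and 14 CPM in cGAS_YT and at 2.11 and 1.27 CPM in STING_YT (2.73 ± 0.21, limma adjusted p = 6.16e-08). CTGF, a matricellular protein, stood at 207 and 194 CPM against 50.3 and 56.6 CPM (1.89 ± 0.15), and its relative CYR61 at 268 and 259 CPM against 137 and 139 CPM (0.93 ± 0.13). All 3 genes had both cGAS_YT libraries above both STING_YT libraries, as had 35.9% of all genes. With control siRNA their means were 13.5 CPM for ANKRD1, 635 CPM for CTGF and 478 CPM for CYR61, and with YAP and TAZ siRNAs alone 0.727, 101 and 41.7 CPM.

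IGFBP3 (1.74), TGFB2 (1.72), GADD45B (1.52), CRIM1 (1.5) and the junction protein AMOTL2 (1.06) were higher too. PTPN14, a phosphatase that binds YAP, was lower by a small difference (-0.28) whose call was lost when cGAS_YT replicate 9 or either STING_YT library was left out. A positive difference of differences was called for 9 members, beside 3.53% of all genes, and a negative one for none. CYR61 (479 and 475 CPM in cGAS, 547 and 523 CPM in STING) and AMOTL2 (151 and 153 CPM, 185 and 168 CPM) showed no called difference without the YAP and TAZ siRNAs. Their difference of differences was 1.09 ± 0.19 (limma adjusted p = 0.00262) and 1.27 ± 0.13 (limma adjusted p = 4.04e-05). The number of such members was 4 without STING replicate 13 and 5 without cGAS replicate 7 or STING_YT replicate 16.

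Among 21 Hippo and TEAD genes 8 were higher and 2 lower, with 1 lower without cGAS_YT replicate 10 or STING_YT replicate 15. VGLL3, a TEAD cofactor, stood at 72.6 and 63.5 CPM against 24.4 and 21.0 CPM (1.54 ± 0.12), and NF2, the upstream activator of the kinases, at 67.2 and 54.3 CPM against 21.2 and 27.0 CPM (1.30 ± 0.12). VGLL4, which competes with YAP for TEAD, was lower at 49.4 and 51.9 CPM against 93.9 and 96.0 CPM (-0.89 ± 0.08). The oxytocin receptor OXTR, not on a list, had the largest positive difference of differences among genes averaging 5 CPM or more. It stood at 179 and 163 CPM in cGAS_YT and at 40.8 and 30.3 CPM in STING_YT, but at 307 and 320 CPM in cGAS and 399 and 389 CPM in STING (2.58 ± 0.16, limma adjusted p = 3.15e-07). In YT it had a mean of 8.35 CPM.

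GALNT15 (2.43), SEMA6A (2.17), HBE1 (2.13) and the imprinted gene MEST (2.09) were next in that order. For these 4 genes the YT mean lay between 1.20 and 5.45 CPM. MEST stood at 57.2 and 60.1 CPM in cGAS_YT, 19.2 and 18.2 CPM in STING_YT, 63.9 and 59.5 CPM in cGAS and 86.2 and 88.2 CPM in STING. HBE1 was not called between cGAS_YT and STING_YT (2.93 and 3.63 CPM against 2.94 and 0.610 CPM).

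Genes of cell division were more often lower than higher in cGAS_YT. Of 26 genes of G2 and mitosis, 13 were lower and 1 higher, with a median of -0.47, and 8 were lower without cGAS_YT replicate 10 or STING_YT replicate 15. These genes are low, and the median was -0.65 with a pseudocount of 0.25 and -0.23 with one of 4. MKI67, the proliferation antigen, stood at 4.16 and 3.68 CPM in cGAS_YT and at 9.11 and 9.04 CPM in STING_YT, but at 16.1 and 20.9 CPM in cGAS and 71.0 and 72.5 CPM in STING. The gap between the cGAS and STING siRNAs was thus smaller on the log scale with the YAP and TAZ siRNAs (-1.04 against -1.91, difference of differences 0.87 ± 0.23, limma adjusted p = 0.0387), a call that was lost with any of 7 of the 8 libraries left out. The kinetochore protein CENPF (0.88) and the spindle protein NUSAP1 (1.25) were positive in this test too, and 12 of the 26 members were. That count was 7 without STING replicate 13 or STING_YT replicate 16.

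Cyclin A2 (CCNA2) was the member called higher, at 8.12 and 6.85 CPM against 3.66 and 2.13 CPM (1.15 ± 0.22). Of 26 genes of DNA replication and S phase, 7 were lower and 3 higher. The higher ones were thymidylate synthase TYMS (42.2 and 38.1 CPM against 26.0 and 25.1 CPM), the sliding clamp PCNA (131 and 116 CPM against 72.1 and 75.8 CPM) and cyclin E1 (CCNE1), whose call was lost without cGAS_YT replicate 10 or STING_YT replicate 16. RRM2, the small subunit of ribonucleotide reductase, was lower (-0.54), with its call lost without cGAS_YT replicate 9 or STING_YT replicate 15. The number lower was 2 to 4 with any of the 4 libraries left out. Lamin B1 (LMNB1) showed no called difference here (3.45 and 2.39 CPM against 3.16 and 2.74 CPM), beside 10.2 and 8.69 CPM in cGAS and 34.3 and 27.8 CPM in STING.

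Among 26 targets of p53, 10 were higher (38.5%, beside 19.7% of all genes) and 6 lower (23.1%, beside 17.2%), with a median of 0.14. The differences of the higher members were small, at most 0.78, and 2 members were called lower by at least 2-fold. CDKN1A, the inhibitor p21, was not called, at 1705 and 1633 CPM against 1617 and 1535 CPM. PHLDA3, an inhibitor of Akt, was lower at 39.4 and 48.2 CPM against 121 and 121 CPM (-1.45 ± 0.12), and so was BBC3, the cell death activator PUMA (-1.03).

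More inflammatory genes were lower than higher in cGAS_YT. Of 27 cytokines, chemokines and prostaglandin genes, 10 were lower and 5 higher, with a median of -0.30. Without STING_YT replicate 16, 4 were lower and 4 higher with a median of -0.07, and without cGAS_YT replicate 10 the median was -0.16. PTGS2, the inducible cyclooxygenase, stood at 24.4 and 25.9 CPM in cGAS_YT and at 35 and 61.1 CPM in STING_YT, with a YT mean of 644 CPM. Its difference of -0.86 ± 0.23 lost its call without cGAS_YT replicate 9 or STING_YT replicate 16. Without YAP and TAZ siRNAs the order was the reverse, at 13.4 and 15.7 CPM in cGAS and 1.21 and 2.31 CPM in STING. Its difference of differences, -3.38 ± 0.33 (limma adjusted p = 3.78e-05), was the most negative among genes averaging 5 CPM or more.

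AREG, a ligand of the EGF receptor, stood at 63.8 and 44.3 CPM against 82.6 and 111 CPM, and GDF15, a stress cytokine, at 352 and 295 CPM against 422 and 479 CPM. Both were lower with the YAP and TAZ siRNAs and higher without them, with differences of differences of -1.98 ± 0.24 and -1.02 ± 0.14. ANGPTL4 (-2.38) and DIO2 (-2.15), which activates thyroid hormone, shared that pattern. The call of DIO2 between cGAS_YT and STING_YT was lost without cGAS_YT replicate 9 or STING_YT replicate 16. The pseudogene HMGB1P21 (-1.79) can share reads with its parent gene and is uncertain, and its call was lost with any of 5 libraries left out.

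The neutrophil chemokines had few reads in both groups, beside a YT mean of 394 CPM for CXCL1. CXCL1 stood at 5.67 and 2.59 CPM against 6.66 and 9.81 CPM and was not called, whereas CXCL2 and CXCL3 were called lower. The calls of CXCL2 were lost without cGAS_YT replicate 9 or STING_YT replicate 16, and those of CXCL3 without cGAS_YT replicate 10 or STING_YT replicate 16. These close relatives may share reads. CXCL8 (4.20 and 3.06 CPM against 1.67 and 2.08 CPM), IL6 (3.21 and 1.4 CPM against 2.33 and 1.63 CPM) and IL1B (1.65 and 2.23 CPM against 1.89 and 2.03 CPM) were not called. IL24 was lower, at 1.13 and 0.208 CPM against 2.55 and 3.15 CPM (-1.26 ± 0.25).

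PTGS1, the constitutive cyclooxygenase, was higher with tight replicates, at 525 and 541 CPM against 208 and 227 CPM (1.29 ± 0.08). The death ligand TNFSF10, which interferon is known to induce, was higher at 7.08 and 2.49 CPM against 1.17 and 0.915 CPM, and its call was lost without cGAS_YT replicate 9. Of 24 NF-kB subunits, inhibitors and targets, 3 were lower and 3 higher, 12.5% on either side beside 17.2% and 19.7% of all genes. The feedback inhibitor NFKBIA was not called (224 and 186 CPM against 211 and 243 CPM), and TNIP1 (-0.79) and RELB (-0.58) were lower. None was higher without STING_YT replicate 15, and 1 without cGAS_YT replicate 9 or STING_YT replicate 16.

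**Figure D3:**
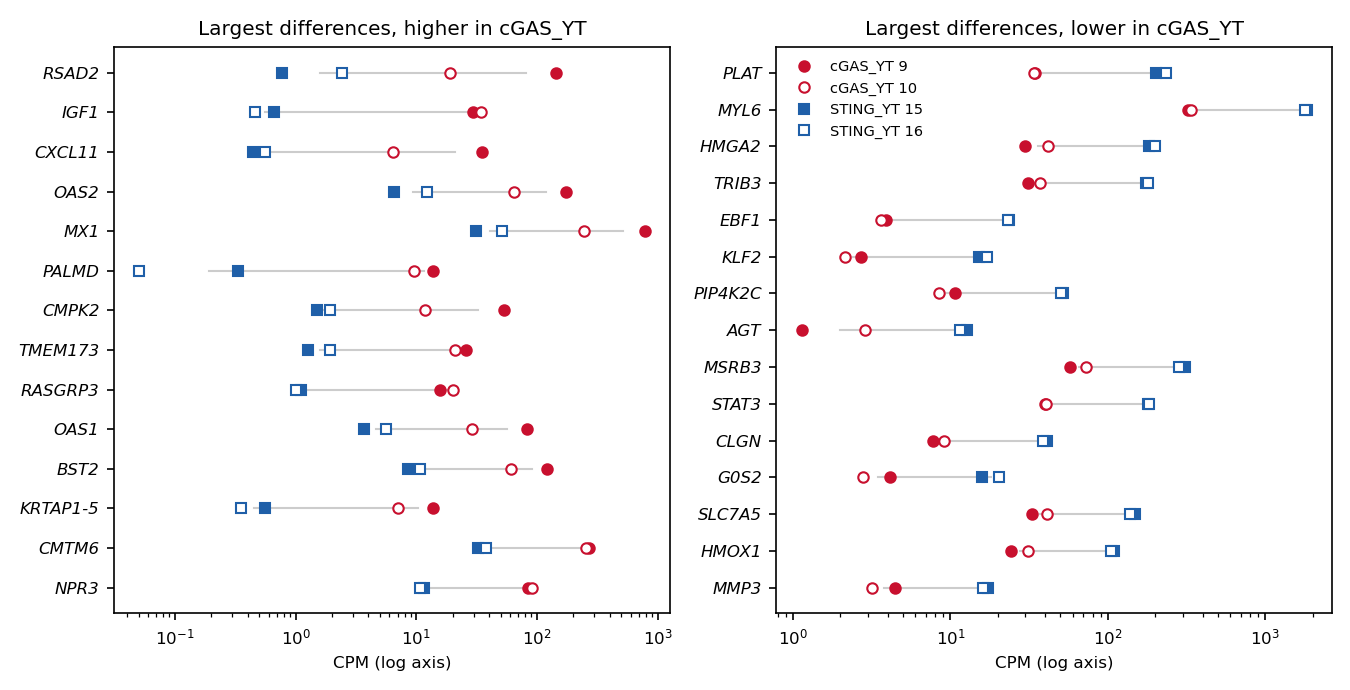
CPM (log axis) in each of the 4 libraries for genes from the 15 largest log2 differences in each direction among called genes averaging 5 CPM or more whose groups do not overlap; the grey line joins the group means. The interferon-stimulated genes on the left show the distance between both cGAS_YT replicates (RSAD2 at 144 and 19.1 CPM), whereas IGF1, CMTM6 and the genes on the right mostly have close replicates.

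Outside these pathways the largest differences were in single genes. IGF1, the growth factor, stood at 29.4 and 34.3 CPM in cGAS_YT and at 0.666 and 0.457 CPM in STING_YT (4.39 ± 0.22, limma adjusted p = 4.14e-10). Control and YT had means of 0.579 and 0.572 CPM, so the libraries with cGAS siRNAs were the high ones, at 12 and 9.72 CPM in cGAS. The receptor MET stood at 21.4 and 24.6 CPM against 6.77 and 6.45 CPM (1.66 ± 0.15), with a difference of differences of 1.37 ± 0.22. NPR3, the clearance receptor of natriuretic peptides, stood at 84.2 and 90.7 CPM against 11.7 and 10.7 CPM (2.86 ± 0.21). CMTM6, which stabilises PD-L1, stood at 269 and 253 CPM against 32.4 and 37.5 CPM (2.87 ± 0.10), with a control mean of 301 CPM, so the STING_YT libraries were the low ones.

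PALMD (3.40), the Ras activator RASGRP3 (3.19) and the keratin-associated KRTAP1-5 (2.90, a family of near-identical genes) were among the higher genes too. In the other direction HMGA2, an architectural chromatin protein of embryonic growth (chr12), stood at 29.7 and 41.9 CPM against 184 and 200 CPM (-2.41 ± 0.12, limma adjusted p = 4.04e-10). Its relative HMGA1 stood at 419 and 461 CPM against 1133 and 1179 CPM (-1.39 ± 0.09). EBF1 (-2.35), KLF2 (-2.33), the lipid kinase PIP4K2C (-2.31), angiotensinogen AGT (-2.19), the methionine sulfoxide reductase MSRB3 (-2.17), the chaperone CLGN (-2.11) and the lipase inhibitor G0S2 (-2.10) were lower too.

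Matrix and contractile genes were mixed, with more higher than lower. Of 36 matrix, protease and crosslinking genes 20 were higher and 6 lower. The protease ADAM19 stood at 590 and 622 CPM against 87.2 and 89.8 CPM (2.76 ± 0.07, limma adjusted p = 6.63e-13). PLAT, tissue plasminogen activator, was lower at 34.4 and 33.8 CPM against 202 and 236 CPM (-2.64 ± 0.10). The collagenase MMP1 was higher (1.92), stromelysin MMP3 (-1.90) and the membrane protease MMP14 (-1.24) were lower, and elastin (ELN, 1.6) was higher.

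Of 20 collagens 10 were higher and 3 lower, and 6 were higher without cGAS_YT replicate 10. COL1A1, the main chain of type I collagen, was lower at 9251 and 10776 CPM against 21145 and 19004 CPM (-1.01 ± 0.14). COL11A1 (1.62) and COL7A1 (1.13) were higher. Among 25 contractile and focal adhesion genes 12 were higher and 4 lower, with 2 lower without STING_YT replicate 15. The myosin light chain MYL6 stood at 323 and 339 CPM against 1838 and 1797 CPM (-2.45 ± 0.10, limma adjusted p = 5.44e-11). Actinin ACTN4 (1518 and 1483 CPM against 480 and 461 CPM), smooth muscle actin ACTA2 (2127 and 2241 CPM against 1160 and 1014 CPM), tropomyosin TPM1 (1396 and 1443 CPM against 681 and 665 CPM) and smooth muscle myosin MYH11 (17.0 and 23.0 CPM against 3 and 3.15 CPM) were higher.

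The same siRNAs were compared without YAP and TAZ siRNAs in libraries that the main comparison does not use. There 2221 genes (16%) were higher and 2449 (17.6%) lower in cGAS than in STING. Across the 13894 genes both log2 differences had a Pearson r of 0.718 and the same sign for 74.8%. Genes of a sample are not independent replicates, and the pairs of groups share the siRNAs but no library. Of the genes higher in cGAS_YT, 1552 were also higher in cGAS (56.7% of the former and 69.9% of the latter). Of those lower, 1443 were lower in both (60.5% and 58.9%). Calls in opposite directions were found for 47 and 19 genes.

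**Figure D4:**
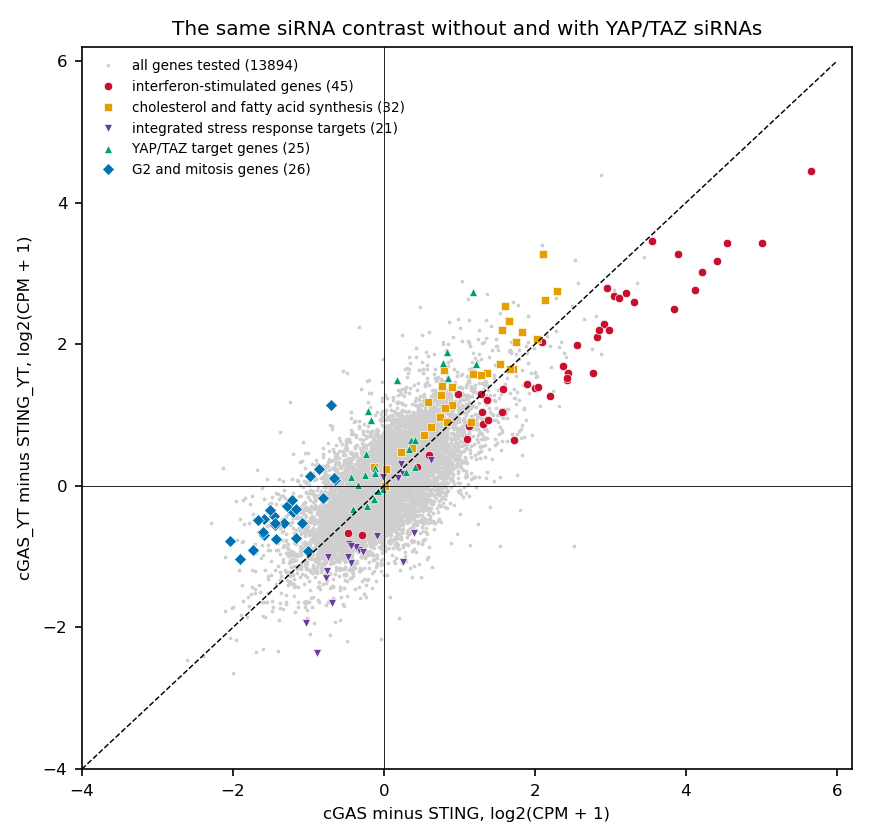
Log2 difference cGAS_YT minus STING_YT (vertical) against cGAS minus STING (horizontal), on the log2(CPM + 1) scale, for all 13894 genes (grey) and members of 5 lists; the dashed line marks equal differences. Interferon-stimulated genes lie below the line on the right (medians 1.59 and 2.42), and mitosis genes above it on the left (medians -0.47 and -1.30).

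By list, the interferon-stimulated genes had a median of 2.42 and 43 members higher and 1 lower without YAP and TAZ siRNAs, beside 42 and 2 with them. Lipid synthesis genes had a median of 1.03 with 28 higher beside 1.49 with 29 higher, and stress response targets -0.37 with 12 lower beside -0.91 with 16 lower. Targets of YAP and TAZ had a median of -0.08 beside 0.27, and genes of mitosis -1.30 with all 26 lower beside -0.47 with 13 lower. With a pseudocount of 4 the mitosis medians were -1.14 and -0.23, and with one of 0.25 they were -1.38 and -0.65. The test of the difference between both contrasts called 718 genes (5.17%), 490 of them positive (3.53%) and 228 negative (1.64%). These counts were between 175 and 369 positive and between 81 and 167 negative with any 1 of the 8 libraries left out.

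Among interferon-stimulated genes this test called 2 of 45, both negative: the helicase DDX60 (-1.07 ± 0.21) and the scramblase PLSCR1 (-0.93 ± 0.23, lost with any of 5 libraries left out). Without cGAS_YT replicate 9 it called 23 of them negative, and without STING_YT replicate 16 none. DDX60 stood at 78.2 and 54.7 CPM in cGAS_YT, 38.0 and 45.1 CPM in STING_YT, 79 and 74.6 CPM in cGAS and 21.7 and 23.6 CPM in STING. Its call between cGAS_YT and STING_YT was lost without cGAS_YT replicate 9 or STING_YT replicate 15. Among lipid synthesis genes it called 6 positive, among them MSMO1 (0.63 ± 0.13, lost with any of 4 libraries left out) and FADS2 (0.49 ± 0.13, lost with any of 7), and 2 to 4 with any 1 library left out.

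A pair of 7-base sequences in the 3' untranslated region (3' UTR) went with the direction of the difference. The heptamer GCATTCA is also found in the cGAS transcript and GTCATAT in the STING transcript, as are 16% and 9.74% of all 16384 heptamers. Both were picked from earlier results on the libraries with cGAS or STING siRNAs alone. They are shown because 5 of the 15 most lower genes hold the first and 5 of the 15 most higher genes hold the second. UTRs were taken from GENCODE release 29 (GRCh38) for 11910 tested genes. Capitals mark the heptamer, read 5′ to 3′ on the transcript's strand.
MB21D1 (chr6:73424008-73424037, minus strand): tttattttaggtaGCATTCAgcctagaggc
HMGA2 (chr12:65954392-65954421, plus strand): tgttagggctaaaGCATTCAgaatcatctt
STAT3 (chr17:42314801-42314830, minus strand): cttggtgctttaaGCATTCAgcttccttca
STAT3 (chr17:42313448-42313477, minus strand): tgtcctggccactGCATTCAaattccaatg
MSRB3 (chr12:65464458-65464487, plus strand): gaaaaagaaagcaGCATTCAaatgtaagac
PIP4K2C (chr12:57602344-57602373, plus strand): gagatggccaaaaGCATTCAagcctggggg
TMEM173 (before the 3' UTR, chr5:139480811-139480840, minus strand): atgggctggcatgGTCATATtacatcggat
CMTM6 (chr3:32481907-32481936, minus strand): tctcagctggcctGTCATATaaaacatact
ADAM19 (chr5:157479944-157479973, minus strand): catggccattgggGTCATATgtttattttt
NPR3 (chr5:32789053-32789082, plus strand): ctagtagtcacatGTCATATagtaaaataa

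Of 1371 genes with GCATTCA in the 3' UTR, 30.9% were lower and 18.4% higher, with a median log2 difference of -0.11. Of 10539 genes without it, 16.2% were lower and 21.8% higher, with a median of 0.02. With 2 or more sites (211 genes) 43.1% were lower, with a median of -0.32. Genes with GTCATAT leaned the other way: of 1121 genes 34.9% were higher and 13.6% lower, with a median of 0.17, beside 20.0% and 18.4% of 10789 genes without it. With 2 or more sites (151 genes) 39.1% were higher and 6.62% lower.

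Genes with a site have longer UTRs, with a median of 3336 bases for GCATTCA and 3499 bases for GTCATAT against 1424.5 bases for all. Among UTRs of at least 2000 bases the medians were -0.10 with GCATTCA and 0.06 without, and 0.17 with GTCATAT and 0.01 without. Of the 295 genes lower by at least 2-fold that have a UTR, 35.6% hold GCATTCA, beside 11.5% of all. Of the 533 higher by at least 2-fold, 19.3% hold GTCATAT, beside 9.41% of all.

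The share of members with a site differed between lists. Of the interferon-stimulated genes 11.1% hold GCATTCA and 11.1% GTCATAT, of the lipid synthesis genes 9.38% and 3.13%, and of the stress response targets 4.76% and 9.52%. Of the growth factor receptor and IGF genes 31.8% and 22.7% hold them, and of the collagens, COL1A1 among them, 20.0% and 0%. STAT3, HMGA2, MSRB3, PIP4K2C and MMP3 hold GCATTCA, and HMGA2 also GTCATAT. IFITM2 and IFITM3, both called lower, are among the 5 interferon-stimulated genes with GCATTCA, and the rest of those were called higher. OAS2, CMPK2, CMTM6 and NPR3 hold GTCATAT, and IGF1, a higher gene, holds GCATTCA. PLAT, MYL6, TRIB3 and SLC7A5 hold neither in the annotated UTR. Whether the siRNAs act on these sites was not tested, since their sequences are not in the labels.

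**Figure D5:**
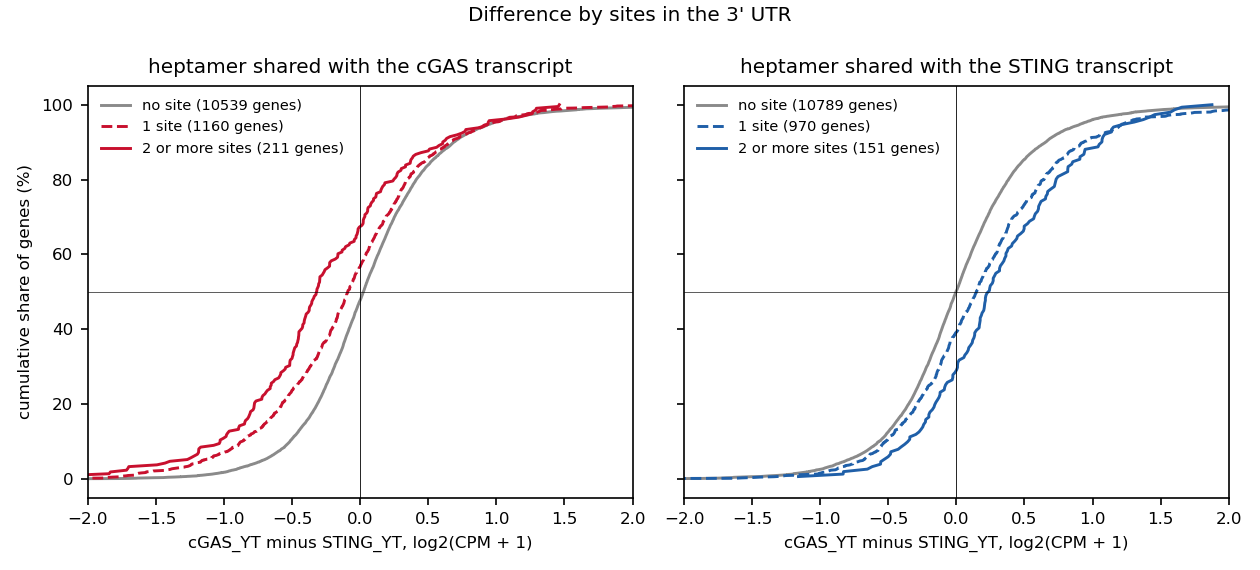
Cumulative share of genes (%) by log2 difference cGAS_YT minus STING_YT, for genes with no site, 1 site or 2 or more sites in the 3' UTR of the heptamer shared with the cGAS transcript (left) or with the STING transcript (right). The curves with sites are shifted to the left in the first panel (median -0.32 with 2 or more sites) and to the right in the second (median 0.24).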

How the data were processed

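RNA of WI-38 fibroblasts was read with a 3' messenger RNA kit in 12 libraries, 2 for each of 6 groups. The deposited table holds CPM values that the authors computed. Per the submitters' processing notes, STAR 2.5.3a, featureCounts and edgeR were used with build hg38. Annotation, strand setting and filters: not given in the sources used here. Each deposited signal value came out as a whole number of reads (100% within 0.01 reads), so read counts were recovered. Libraries held 17790774 to 20650727 reads, and 3 reads corresponded to 0.142 to 0.170 CPM.

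Genes at 1 CPM or more in at least 2 libraries were kept (13894 of 13937). limma 3.58.1 in R 4.3.3 was fitted to log2(CPM + 1) of all libraries with 6 group means and a mean-variance trend, leaving 6 residual degrees of freedom. Tests were two-sided, with Benjamini-Hochberg adjustment over all genes and a threshold of 0.05. Log2 differences are on the log2(CPM + 1) scale, which understates those of low genes. The contrasts were cGAS_YT minus STING_YT, cGAS minus STING, and the difference between both (the difference of differences). Gene lists were described by counts and medians, without a set test. edgeR 4.0.16 (quasi-likelihood) and DESeq2 1.42.0 on the recovered reads, other pseudocounts (0.25 and 4), filters, scalings and leaving out each library were the alternatives. In simulated data for cGAS_YT minus STING_YT (13721 genes), 58.2% of 1.5-fold, 97% of 2-fold and 100% of 4-fold changes were recovered, and 13 of 183 calls were false. For the difference of differences the shares were 16.4%, 70.1% and 100%, with 12 of 136 calls false. Only 67, 67 and 66 genes were changed by these folds, all averaging at least 5 CPM and in cGAS_YT alone. The data had far more calls and included lower genes, so these rates need not hold there.

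The comparison, lists, heptamers and motifs were chosen with earlier results of these data known. Named genes were the siRNA targets, the 15 largest differences in each direction (mean of at least 5 CPM, no overlap between groups), the 5 largest differences of differences in each direction, from each list up to 5 genes with the smallest p, and a short fixed list. Some genes under this rule are not reported here. A further 32 genes were named after their values were seen. Positions were matched for 92.5% of symbols. Promoters came from RefSeq (GRCh38.p14) and UTRs from GENCODE release 29.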

Additional observations from a re-analysis of the deposited data

Results flagged for a closer look

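The cGAS-STING difference depended on the YAP and TAZ siRNAs for part of the genes, by a test of the difference itself (limma, adjusted p under 0.05). It was called positive for 490 genes and negative for 228. Positive means that cGAS_YT minus STING_YT exceeded cGAS minus STING, and the values in brackets are log2 differences of differences for the genes named in the text.

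Among targets of YAP and TAZ and Hippo genes these were AMOTL2 (1.27), ANKRD1 (1.56), CRIM1 (1.32), CTGF (1.05), CYR61 (1.09), GADD45B (0.67), IGFBP3 (0.95), NF2 (0.64), VGLL3 (1.23) and WWTR1 (0.64). In genes of replication, division and the nuclear lamina they were CCNA2 (1.84), CENPF (0.88), LMNB1 (1.59), MKI67 (0.87), NUSAP1 (1.25), PCNA (0.85), RRM2 (1.31) and TYMS (1.21), all positive.

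In lipid synthesis they were FADS2 (0.49) and MSMO1 (0.63), and in growth, matrix and contractile genes ACTN4 (0.51), COL7A1 (-0.94), IGF1 (1.52), MEST (2.09), MET (1.37) and PLAT (-0.64). Stress response targets were all negative: DDIT3 (-0.62), DDIT4 (-1.33), PSAT1 (-0.96), SLC3A2 (-0.66), SLC7A5 (-0.90) and TRIB3 (-1.48).

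In inflammation, interferon and antigen presentation genes they were ADAR (-0.62), AREG (-1.98), CALR (0.42), CXCL3 (-1.53), DDX60 (-1.07), ENPP1 (1.27), GDF15 (-1.02), IL24 (-1.26), IRF1 (-0.60), NFKBIA (-0.49), PLSCR1 (-0.93), PTGS1 (0.51) and PTGS2 (-3.38).

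The other genes were AGT (-1.71), ANGPTL4 (-2.38), CLGN (-1.40), DIO2 (-2.15), G0S2 (-1.12), GALNT15 (2.43), HBE1 (2.13), HEXA (-0.62), HMGB1P21 (-1.79), HMOX1 (-1.27), KRTAP1-5 (1.87), OXTR (2.58), SEMA6A (2.17) and VEGFA (-0.90). Of the 59 genes named, 31 kept their call with each of the 8 libraries left out in turn. The calls of ACTN4, CALR and WWTR1 were lost whichever library was left out. Those of CXCL3, FADS2, HEXA, IL24 and MKI67 were lost with any of 7 libraries left out, those of ADAR, G0S2, NF2 and NFKBIA with any of 6, and those of AGT, HMGB1P21, IGFBP3, PCNA and PLSCR1 with any of 5. A further 11 lost theirs with 1 to 4 libraries left out: CENPF, CTGF, DDIT3, DDX60, GADD45B, HBE1, IGF1, MSMO1, PLAT, PTGS1 and VEGFA.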

How the results depend on the processing

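No paired analysis was possible because each replicate number occurs in only 1 library. For cGAS_YT minus STING_YT the median-of-ratios scaling and no filter changed the call of none of the 144 genes named, edgeR kept 143, DESeq2 142 and each pseudocount 143; leaving out cGAS_YT replicate 9 kept 129, the fewest. With 1 library left out, with the lone library taken to vary as the other groups do, 3530 to 4070 genes were called, 1965 to 2192 higher and 1565 to 1878 lower (1565 without STING_YT replicate 15). For cGAS minus STING the counts ranged from 2971 to 3342 in all, 1454 to 1599 higher and 1480 to 1743 lower. The low values came without STING replicate 13 (2971, and 1480 lower) and without cGAS replicate 7 (3025, with 1454 higher and 1571 lower). The difference of differences was least stable: 361 genes without a variance trend (255 positive, 106 negative), 1754 with only the groups compared (1165 and 589), and 266 to 535 (175 to 369 and 81 to 167) with 1 of 8 libraries left out. Leaving out any library but cGAS_YT replicate 10 lowered it by over 1.5 times, and the cause was not tested. Genes that were not called changed sign with a library left out: IFIT5 ranged from -0.011 (without cGAS_YT replicate 9) to 0.54, IL1B from -0.16 to 0.13 (0.020 without STING_YT replicate 16, 0.13 without cGAS_YT replicate 9), IL6 from -0.30 to 0.51 (-0.067 and -0.30 without the same libraries), LMNB1 from -0.22 to 0.17 (0.052 without STING_YT replicate 15, 0.17 without cGAS_YT replicate 10) and SREBF1 from -0.15 to 0.15 (-0.15 and -0.015 without those libraries, -0.0034 by DESeq2 and -0.0054 by edgeR). The heptamer medians at a mean of at least 5 CPM were -0.12 and 0.17. Genes of few reads, such as CXCL2, have the least precision.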

Other observations

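Genes outside the main groups also differed between cGAS_YT and STING_YT. Of all genes 19.7% were called higher and 17.2% lower. The shares were 45.5% and 9.09% for glycolysis, 20.8% and 45.8% for lysosomal genes and 0% and 38.5% for mitochondrially encoded transcripts. They were 40% and 20% for Arp2/3 subunits, 31.8% and 27.3% for TGF-beta genes, and 25% and 6.25% for lamin and LINC complex genes. The lamin and LINC complex shares were thus near or below those of all genes. Of 22 genes of glycolysis and glucose transport, 10 were higher and 2 lower, with 1 lower without cGAS_YT replicate 10 or either STING_YT library and 6 higher without cGAS_YT replicate 9 or either STING_YT library. The glucose transporter SLC2A3 stood at 129 and 130 CPM in cGAS_YT and at 43.9 and 42.5 CPM in STING_YT (log2 difference 1.56 ± 0.08, limma adjusted p = 5.08e-10), while hexokinase HK1 was lower at 53.1 and 48.9 CPM against 87.4 and 88.6 CPM. Of 24 lysosomal genes 11 were lower and 5 higher, with 7 lower without cGAS_YT replicate 9. HEXA, a subunit of beta-hexosaminidase, was lower at 34.6 and 27.4 CPM against 103 and 95.6 CPM.

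VEGFA, the vascular growth factor, was lower at 56.8 and 54.2 CPM against 108 and 121 CPM, and the receptor IGF2R, which carries lysosomal enzymes, was lower at 110 and 126 CPM against 356 and 374 CPM. Of 14 fibroblast markers 4 were higher and 4 lower, 28.6% on either side beside 19.7% and 17.2% of all genes, with a median of -0.19. The higher ones included LUM (463 and 498 CPM against 215 and 201 CPM) and FBN1 (512 and 574 CPM against 255 and 270 CPM). The lower ones included COL1A1. Of 13 mitochondrially encoded transcripts 5 were lower and none higher by limma; 3 were lower without cGAS_YT replicate 9 or either STING_YT library, with 9 lower in a fit of only the groups compared. Of 10 Arp2/3 subunits 4 were higher and 2 lower, with 2 higher without cGAS_YT replicate 9 or either STING_YT library and 1 lower without cGAS_YT replicate 9 or STING_YT replicate 15. Of 16 lamin and LINC complex genes 4 were higher and 1 lower, with 2 higher without cGAS_YT replicate 9 or STING_YT replicate 16 and 2 lower without cGAS_YT replicate 10. Of 22 TGF-beta pathway genes 7 were higher and 6 lower, with 4 higher without cGAS_YT replicate 9.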
